A study of Mus musculus with 12 samples.

Results

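The comparison described here sets mouse kidney rudiments taken at E11.5, a stage in days of embryonic development, and cultured for 7 days against fresh E11.5 kidney. It rests on 2 of the 12 one-colour arrays of the study, 1 for the cultured tissue and 1 for the fresh tissue, chosen by their titles. Both came from wild-type mice of the ICR strain, and the fresh kidney was taken whole without its ureter, which the label of the cultured kidney does not mention. Culture took place on a transwell with 50% Matrigel, a basement membrane extract, in DMEM/F12 medium with 10% serum. How many kidneys or embryos were pooled is not stated. The other arrays held fresh ICR kidney without ureter at E13.5, at E15.5, at E17.5 and on the day of birth (P0), 1 array each, and reconstructed kidney organoids. Organoids were measured after 7 days of the same culture (day 7, n = 3) and immediately after reconstruction (day 0, n = 3). Their label gives ICR wild-type cells plus mouse embryonic stem cells (mESC) with B6 and 129SV background.

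At E11.5 the kidney consists of a ureteric bud that has just begun to branch, a cap of nephron progenitors around each bud tip, and a surrounding stroma. Signals between bud and cap drive branching, and Wnt9b from the bud and Wnt4 in the cap turn progenitors into renal vesicles, which grow into nephrons with podocytes, proximal tubule, loop of Henle and distal tubule. Explants of this stage have long been known to branch and form nephrons in culture, without blood flow.

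Levels below are log2 signals minus the array's 75th percentile, so that 0 is the level of that percentile. Differences are the level of the cultured kidney minus that of the fresh kidney, on the log2 scale. A gene was measured where its probe was well above background on at least 1 of both arrays, and it was called higher or lower where the 2 levels lay at least 2-fold apart. Where 1 array was not well above background, the smallest difference that its detection limit allows was used, and the fold is then given as at least a value. With 1 array on each side no test was possible, and counts and values describe these arrays. The 75th percentile of signal was 211 on the cultured array and 224 on the fresh array. On them 57.6% and 59.8% of 55681 probes were well above background, and repeated spots of a probe had a median SD of 0.0779 and 0.0699. Both arrays lay on 1 slide. For scale, the median gene had an SD of 0.101 between day 7 organoids and of 0.152 between day 0 organoids (n = 3 each).

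A mark of the embryos themselves moved with the comparison. Ddx3y, a gene of the Y chromosome, was not well above background in cultured kidney (-6.89) and stood at 0.71 in fresh kidney, at least 46.4-fold lower in culture. Eif2s3y (-5.51 and -0.24) and Uty (-6.79 and -2.85), also on the Y chromosome, differed the same way. Xist, the RNA of the inactive X chromosome, was at 0.38 in cultured and 0.01 in fresh kidney. Y-linked RNA was thus detected in the fresh tissue and not in the cultured tissue, while Xist was detected in both. Of 5 listed sex-linked genes 3 were called lower, with a median difference of -3.94 (-1.98 with bounds), and Kdm5d could not be told from the detection limit. The part of this difference in the results below was not tested.

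Among 17362 measured genes 2099 were at least 2-fold higher in cultured kidney (12.1%) and 1198 were lower (6.9%). The larger changes lay mostly on the higher side, with 349 genes higher and 61 lower by at least 8-fold, and 158 higher and 27 lower by at least 16-fold. The median of all differences was -0.12. Of 790 called genes with several measured probes, 719 (91.0%) had all of them on the same side. With normexp background correction, which draws low signals together, 1123 genes were higher and 492 lower.

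The 10 largest increases among genes above background on both arrays included genes known from epithelia, smooth muscle and stroma. S100g, the calcium-binding protein calbindin-D9k of transporting epithelia, was at 3.55 in cultured and -4.61 in fresh kidney, 286-fold higher. Fxyd4, a regulator of the sodium pump in collecting duct, was at 5.01 and -2.74, 215-fold higher. The smooth muscle actin Actg2 was at 3.88 in cultured and -2.92 in fresh kidney, and Penk, the enkephalin precursor made by renal stroma, was at 6.45 and -0.31, or 112-fold and 108-fold higher. Igfbp1, a binder of insulin-like growth factors (3.34 and -3.03), and Nupr1, a nuclear protein of stressed cells (2.39 and -3.97), were 83.1-fold and 82.3-fold higher. Ly6a, Tmem45b and the tetraspanin Tspan1 were also in this set, at 72.9-fold to 87.9-fold.

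Among genes seen only on the cultured array large differences were those of Spink1, a trypsin inhibitor (at least 279-fold), Sprr2g, a cornified envelope protein (at least 218-fold), the uroplakin Upk3a (at least 217-fold) and Hnf4a, a transcription factor of proximal tubule (at least 210-fold). The decreases were led by haemoglobin genes. Of the 15 genes named on that side, 11 belong to red blood cells. The others were Crabp1, which binds retinoic acid (-2.45 in cultured and 3.36 in fresh kidney, 56.0-fold lower), Lin28b (-2.93 and 2.31, 37.8-fold lower), an RNA-binding protein of early embryos, Gfra3 (-1.65 and 3.31, 31.2-fold lower), the receptor of artemin on neurons, and Ddx3y.

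**Figure D1:**
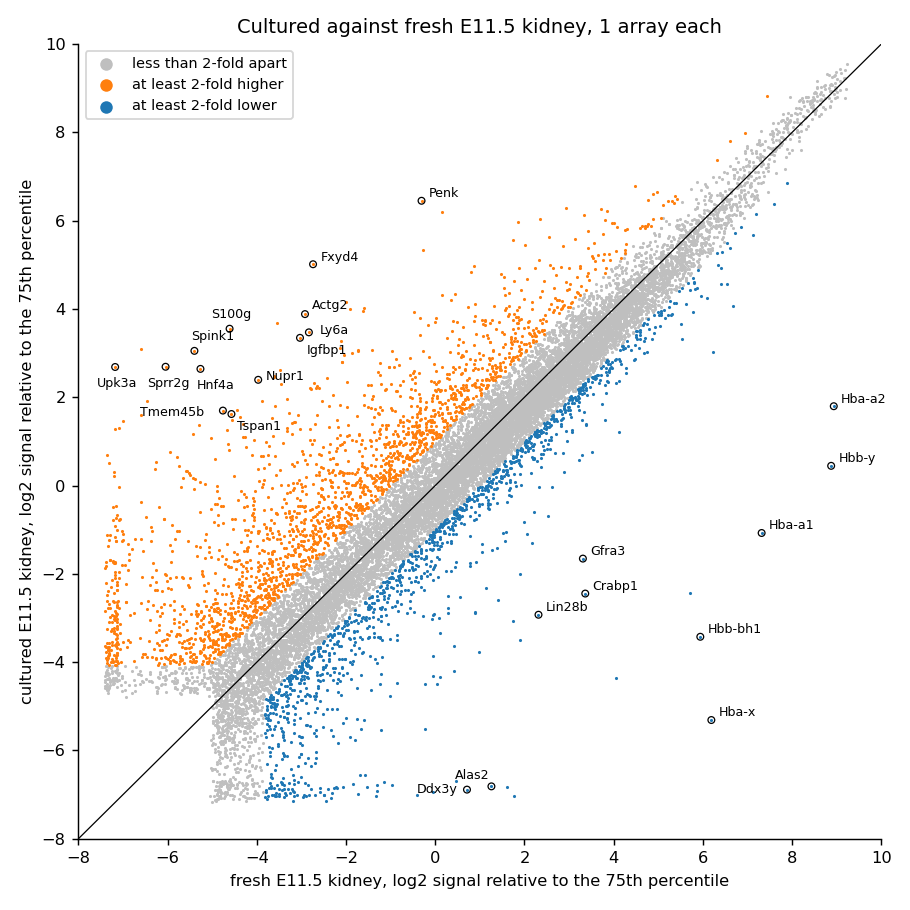
Level of each measured gene in cultured E11.5 kidney (vertical axis) against fresh E11.5 kidney (horizontal axis), both as log2 signal relative to the array's 75th percentile, 1 array each; orange and blue points are at least 2-fold higher and lower. Named genes are ringed, and haemoglobin genes lie farthest below the diagonal, while S100g, Fxyd4, Penk and the named genes seen only on the cultured array lie far above it.

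Most listed genes of early nephrons, proximal tubule and loop of Henle were higher in cultured kidney, and podocyte genes were uneven. Of 14 genes of renal vesicles and S-shaped bodies 10 were higher and none lower, with a median difference of 1.78. Wnt4, the inducer of epithelial conversion, was at 5.20 in cultured and 3.52 in fresh kidney (3.21-fold). Hes5, a Notch target, was at 0.87 and -2.53 (10.6-fold), the Notch ligand Jag1 at 2.75 and 0.87 (3.71-fold), and Papss2, which makes the sulfate donor of the cell, at 2.69 and 0.16 (5.79-fold). Hey1, Fgf8, Bmp2 and Ccnd1 lay within 2-fold. In a whole organ a higher signal can come from more cells of a type or more RNA per cell, and these arrays cannot tell them apart.

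In the podocyte list 6 of 15 genes were higher and 1 lower, with a median difference of 0.55. Clic5, a membrane and cytoskeletal protein of foot processes, was at 1.11 in cultured and -4.28 in fresh kidney (41.8-fold), the phosphatase Ptpro at 0.45 and -3.17 (12.3-fold), and Npnt, a matrix ligand, at 1.29 and -1.23 (5.74-fold). Nephrin itself, Nphs1, was well above background only in cultured kidney and at least 4.86-fold higher. Synpo lay within 2-fold, and Cdkn1c, a cell cycle inhibitor present in mature podocytes, was lower (6.14 and 7.19).

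Proximal tubule genes had a median difference of 3.17 (2.67 with bounded genes at their bound), with 15 of 20 measured genes higher and 1 lower. Hnf4a was at 2.64 in cultured kidney and not above background in fresh kidney (-5.26). The water channel Aqp1 was at 2.96 and -2.05 (32.3-fold), the brush border scaffold Pdzk1 at 2.43 and -2.43 (29.1-fold), and Slc27a2, a fatty acid transporter, at 0.68 and -3.75 (21.5-fold). The endocytic receptors Lrp2 (1.48 and -0.07) and Cubn (-0.60 and -2.61) were 2.93-fold and 4.05-fold higher. Carriers in the list were uneven. Slc5a2, the glucose carrier, Slc5a12 and the urate carrier Slc22a12 were not well above background on either array. The organic anion carrier Slc22a8 was lower (-4.73 and -3.32), and Slc22a6, its relative, was higher at -0.71 and -2.74.

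Among genes of the loop of Henle and the distal tubule 8 of 13 genes were higher and none lower, with a median difference of 2.62. Fxyd2, a sodium pump subunit, was at 5.33 in cultured and -0.28 in fresh kidney (48.5-fold). The patterning factor Irx1 was at 2.21 and -2.60 (28.0-fold), and Umod, which encodes uromodulin of the thick ascending limb, was at -0.996 and -4.20 (9.20-fold). The channel Kcnj1 and the salt carrier Slc12a1 were seen only on the cultured array, at least 39.2-fold and 4.72-fold higher. Slc12a3, the carrier of the distal convoluted tubule, was below background on both arrays. With normexp correction the proximal median was 1.73 and the loop median 0.84.

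**Figure D2:**
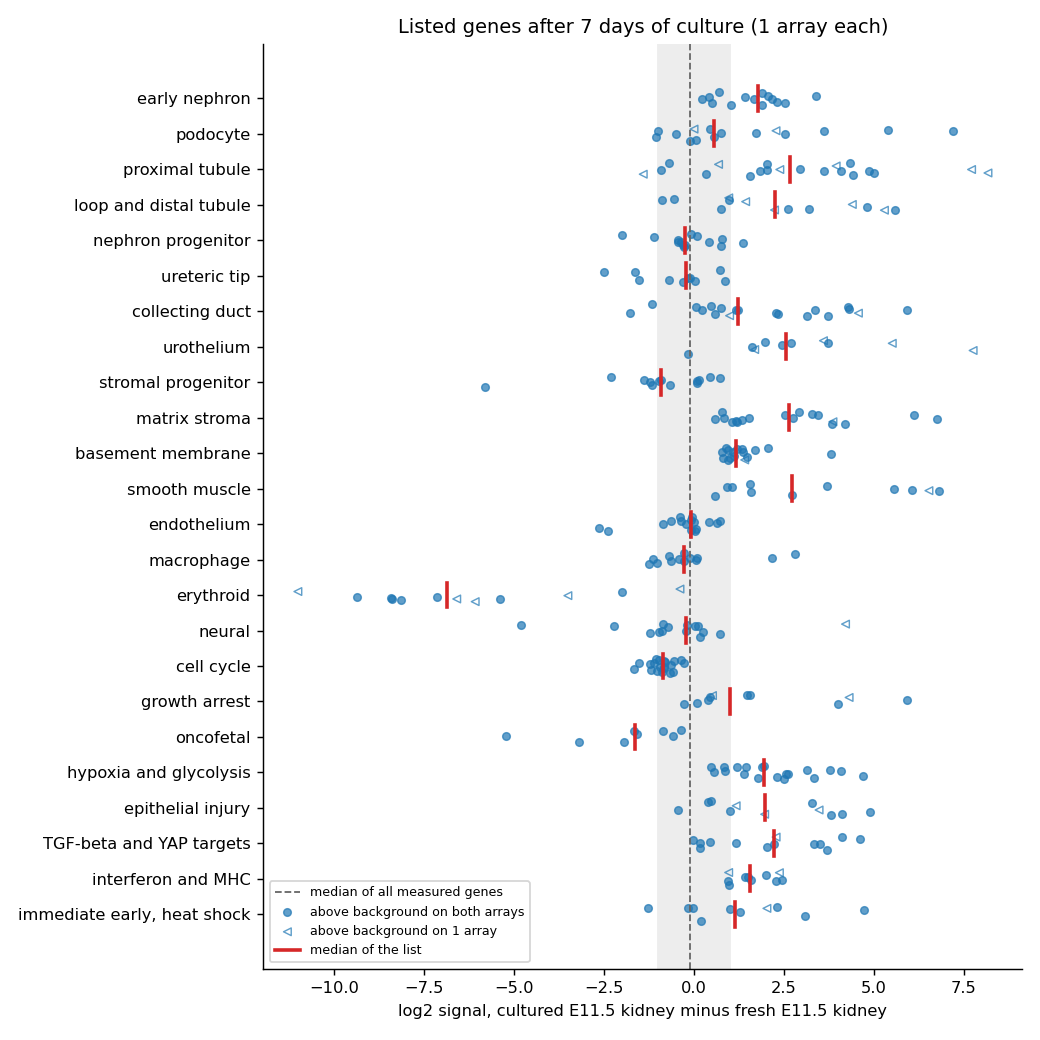
Difference of each listed gene between cultured and fresh E11.5 kidney (log2, 1 array each), with triangles at the bound for genes above background on 1 array, a red bar at the list's median with bounds, and the grey band marking differences under 2-fold. Early nephron, proximal tubule, loop, urothelial, matrix, smooth muscle, hypoxia and injury lists lie to the right. The medians of the nephron progenitor and podocyte lists lie inside the grey band. Erythroid genes lie far to the left, beyond every other list.

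Most listed genes of nephron progenitors lay near their fresh levels. Of 14 nephron progenitor genes 11 lay within 2-fold, with a median difference of -0.26. Six2, which keeps progenitors from differentiating, was at 5.62 in cultured and 6.05 in fresh kidney. Eya1 (5.66 and 5.93), Wt1 (5.48 and 5.79), Sall1 (2.51 and 2.44) and Gdnf (3.20 and 3.47), the branching signal to the bud, were also near their fresh levels. Cited1, a marker of the least committed progenitors, was 2.56-fold higher (5.11 and 3.76). Meox1 (1.39 and 3.38) and Osr1 (0.65 and 1.76), which mark early intermediate mesoderm and metanephric mesenchyme, were 3.98-fold and 2.15-fold lower.

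In the ureteric tip list 7 of 10 genes lay within 2-fold and 3 were lower, with a median difference of -0.23. The Gdnf receptor Ret was at 0.89 in cultured and 1.01 in fresh kidney, its co-receptor Gfra1 at -0.19 and 0.10, and Etv5, a target of Ret signalling, at 4.79 and 4.75. Wnt11, a tip ligand that Ret signalling raises, was at 0.58 and 0.76. Sox8 and Wnt6 were 5.67-fold and 3.14-fold lower.

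Collecting duct genes had a median difference of 2.29 (1.23 with bounds, 1.05 with normexp correction), and 11 of 19 were higher and 2 lower. Krt19, a keratin of simple epithelia, was at 3.996 in cultured and -1.91 in fresh kidney (60.1-fold), and the water channel Aqp3 at 2.34 and -1.98 (20.0-fold). The sodium channel subunit Scnn1b was at 0.68 and -3.60 (19.4-fold), and Wnt7b, a signal from the stalk that shapes the medulla, at -0.18 and -3.32 (8.84-fold). The vasopressin receptor Avpr2 was seen only on the cultured array (at least 23.8-fold). Aqp2, the water channel that vasopressin controls, was 2.34-fold higher at -0.68 and -1.91. Markers of intercalated cells differed less, with Foxi1 at -2.66 and -3.15 and Atp6v1b1 above background only in cultured kidney, at least 1.98-fold higher. Slc26a4 was below background on both arrays.

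Urothelial genes were higher in 9 of 10 cases, with a median difference of 2.57 (1.68 with normexp correction). Upk3a and Upk2, plaque proteins of the urothelial surface, were at 2.69 and 0.44 in cultured kidney and not above background in fresh kidney, at least 217-fold and 45.6-fold higher. Upk1a was at 2.07 and -0.37 (5.44-fold), and Grhl3, a regulator of urothelial maturation, at -0.47 and -4.21 (13.3-fold). Trp63, a factor of basal cells, differed by -0.16 at its brightest probe, but another of its probes differed by 5.8. The fresh kidney had been taken without its ureter, and whether the cultured kidney had been is not stated.

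The stroma shifted between 2 lists. Of 13 stromal progenitor genes 5 were lower and none higher, with a median difference of -0.92. Foxd1, which defines the cortical stromal progenitors, was at 1.47 in cultured and 3.79 in fresh kidney (4.99-fold lower). Meis1 (4.44 and 5.83) and Aldh1a2, an enzyme of retinoic acid synthesis (4.59 and 5.81), were lower too, whereas Tcf21 (3.09 and 2.65) and Pdgfra (3.78 and 3.05) lay within 2-fold. Matrix genes of stroma were higher in 15 of 18 cases and none was lower, with a median difference of 2.63 (1.32 with normexp correction). Next to Penk, the proteoglycans Ogn (2.48 and -3.63) and Dcn (5.45 and 2.01) were 68.9-fold and 10.9-fold higher, and the collagen crosslinking enzyme Lox (0.48 and -3.73) 18.5-fold. The abundant collagens differed less, with Col1a1 at 6.56 and 5.38 (2.27-fold) and Col3a1 at 5.87 and 4.71 (2.23-fold).

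Among 16 basement membrane genes 10 were higher, none lower, and the median difference was 1.16. Every member differed upward by at least 0.78. Lama5, a laminin chain of the mature glomerular membrane, was at 4.78 in cultured and 2.71 in fresh kidney (4.18-fold), and Col4a1 at 4.94 and 3.23 (3.25-fold). Col4a3 and Col4a4, which replace the embryonic collagen IV network in the glomerulus, were at least 2.66-fold and 13.9-fold higher, although probes of Col4a4 ranged from 0.8 to 3.8.

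Contractile genes were mostly higher as well. Of 11 measured genes of smooth muscle and pericytes 9 were higher and none lower, with a median difference of 2.72. The actin Acta2 was at 6.20 in cultured and 0.15 in fresh kidney (66.2-fold), calponin Cnn1 at 3.95 and -1.62 (47.6-fold), Tagln at 6.04 and 2.35 (12.9-fold), and the smooth muscle coactivator Myocd at 0.48 and -2.23 (6.57-fold). The myosin Myh11 was at 1.46 in cultured kidney and not above background in fresh kidney, at least 92.5-fold higher. Actin genes are alike in sequence, so their probes may share signal. As for the urothelial genes, whether the cultured kidney was taken without its ureter is not stated. Ren1, the renin gene of juxtaglomerular cells, was 2.06-fold higher (-1.91 and -2.95), and the pericyte marker Rgs5 lay within 2-fold (2.23 and 1.65).

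Red blood cell RNA was far lower after culture. Of 12 measured erythroid genes 11 were lower, with a median difference of -8.10 (-6.87 with bounds, -5.37 with normexp correction), and their summed signal relative to the 75th percentile was 5.81 in cultured and 1314 in fresh kidney. The embryonic globins Hba-x (-5.31 and 6.19, at least 2069-fold lower), Hbb-bh1 (-3.42 and 5.94, 660-fold lower) and Hbb-y (0.45 and 8.87, 344-fold lower) led the list. The adult globins Hba-a1 (-1.07 and 7.32) and Hba-a2 (1.80 and 8.93) were 335-fold and 141-fold lower. The embryonic globins also fell across the fresh stages. At E17.5 and P0 Hba-x was at -3.54 and -7.30, the latter not above background. Hbb-bh1 was at -3.23 and -3.65 and Hbb-y at -1.15 and -4.86. By contrast, the lowest fresh levels of Hba-a1 and Hba-a2 were 6.43 and 8.24. The globin paralogs are nearly identical, and their probes may share signal. Alas2, which starts haem synthesis in red cells, and Gata1, their master regulator, were above background only in fresh kidney, at least 67.9-fold and 11.4-fold lower.

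Endothelial genes lay close to the fresh level. Of 16 genes 14 lay within 2-fold, with a median difference of -0.09, and their summed signal was 47.1 in cultured and 49.4 in fresh kidney. Cdh5, the cadherin of endothelial junctions, was at 2.14 and 1.72, Pecam1 at -0.86 and -0.87, and the VEGF receptors Kdr at 2.85 and 3.07 and Flt1 at 1.20 and 1.26. The exceptions were Plvap, a protein of fenestrae (-0.03 and 2.61, 6.24-fold lower), and Tek, the angiopoietin receptor (-3.86 and -1.47, 5.22-fold lower). Macrophage genes had a median difference of -0.27, with 2 of 13 higher and 3 lower. Csf1r, the receptor that macrophages need, was at 2.51 and 3.14, Cx3cr1 was 2.40-fold lower (0.66 and 1.92), and Lyz2 was 7.05-fold higher (-1.38 and -4.20).

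Most neural genes were also close to the fresh level, with 11 of 15 within 2-fold, 1 higher, 3 lower and a median difference of -0.21. That median was -0.72 with the mean of all probes and -0.47 with only genes above background on both arrays. Tubb3, a tubulin of neurons, was at 0.07 in cultured and -0.17 in fresh kidney, Nefl at 0.75 and 0.62, and Dbh, an enzyme of noradrenaline synthesis, at 0.44 and -0.27. Prph, a neurofilament of peripheral neurons, was seen only on the cultured array (at least 18.5-fold higher). Chl1, a neural adhesion molecule, was 27.8-fold lower (-3.06 and 1.73), and Sox10, a factor of neural crest and glia, 4.68-fold lower (-4.28 and -2.06).

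Smaller lists of other tissues gave mixed values. Among skeletal muscle genes 1 of 7 was higher (Acta1, median of the list -0.03) and among cartilage and bone genes 2 of 9 (Ibsp and Alpl, median 0.71). Among liver and yolk sac genes 3 of 4 were higher (Afp, Ttr and Fgb, median 1.97), with Alb, Apoa1 and Apob below background on both arrays. Of 6 mesothelial genes Msln (20.8-fold), Upk3b and Gpm6a were higher and Lrrn4 and Bnc1 lower (median 0.26). Of 7 genes of adrenal gland and gonad only Gata4 was called, at least 2.77-fold lower (median -0.42). Of 4 pluripotency genes only Esrrb was called, 4.84-fold higher (median 0.47), and Pou5f1 and Sox2 were below background on both arrays.

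Cell cycle genes were slightly but uniformly lower. All 20 differed downward, by 0.28 to 1.68, and 7 of them by at least 2-fold, with a median difference of -0.86. Ccne1, the cyclin of S phase entry, was at 3.004 in cultured and 4.68 in fresh kidney (3.21-fold lower), and Rrm2, a subunit of ribonucleotide reductase, at 4.10 and 5.62 (2.86-fold lower). Mki67 stayed within 2-fold at 4.62 and 5.18. Genes of growth arrest had a median difference of 1.52 (0.9997 with bounds, 0.68 with normexp correction), with 5 of 10 higher and none lower. The inhibitor Cdkn1a was at 3.06 and -0.96 (16.2-fold), Gdf15, a stress-induced cytokine, at 1.26 and -4.67 (60.8-fold), and Cdkn2b was seen only on the cultured array (at least 19.9-fold). Mdm2, a p53 target, was at 4.23 and 4.15.

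Genes that mark early embryonic growth were lower. Of 8 oncofetal genes 5 were lower and none higher, with a median difference of -1.63. Besides Lin28b, Hmga2, a chromatin protein of fetal tissue, was at 3.03 in cultured and 6.23 in fresh kidney (9.16-fold lower), and Igf2bp3, which binds mRNA, at 0.74 and 2.69 (3.87-fold lower). Lin28a lay within 2-fold (-0.37 and 0.22). Among 10 imprinted genes Peg3 (4.01-fold) and Igf2 (2.10-fold) were lower and Dlk1 2.83-fold higher (median -0.66), and H19 was at 8.56 and 8.46. Posterior Hox genes had a median difference of -0.30, and 3 of 10 were lower, Hoxc11 (3.29-fold), Hoxc10 and Hoxd12.

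The genes that respond to low oxygen were higher together. Cells that lack oxygen stabilise the factor HIF, which binds DNA at the core letters ACGTG or GCGTG. It raises genes for glycolysis, blood vessel growth and oxygen sensing. Of 19 listed genes 15 were higher and none lower, and all 19 differed upward, by 0.48 to 4.69, with a median difference of 1.95. Adm, which encodes the vessel peptide adrenomedullin, was at 1.61 in cultured and -3.08 in fresh kidney (25.8-fold), Ndrg1 at 4.96 and 0.86 (17.2-fold), and Egln3, an oxygen-sensing hydroxylase that marks HIF for degradation, at 2.27 and -1.51 (13.8-fold). Car9, a carbonic anhydrase, was at 0.76 and -2.39 (8.85-fold), Ankrd37 at 3.25 and 0.63 (6.16-fold), and Bnip3, a mitophagy receptor, at 6.27 and 3.72 (5.83-fold). The vessel growth factor Vegfa was at 4.43 and 1.92 (5.68-fold) and the glucose carrier Slc2a1 at 5.85 and 4.08 (3.40-fold). Among enzymes of glycolysis Aldoa (8.83 and 7.44) and Pgk1 (7.80 and 6.61) were 2.61-fold and 2.27-fold higher, while Ldha (8.70 and 8.15), Eno1, Hk2 and Pfkl lay within 2-fold. Probes of Pfkp ranged from 0.0 to 3.3.

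Promoters of 5 of these genes are shown because the genes differed together and HIF has a known core motif. Each is the 250 bases before the start of transcription in RefSeq on build GRCm38.p6, in the direction of the gene, in lower case. Capitals mark ACGTG or its reverse complement CACGT, which overlap where the letters read CACGTG, a palindrome that other factors also bind. Bnip3 lies at chr7:138909507-138909756 (minus strand), Ankrd37 at chr8:45999851-46000100 (minus strand), Car9 at chr4:43506776-43507025 (plus strand), Egln3 at chr12:54203875-54204124 (minus strand) and Adm at chr7:110627407-110627656 (plus strand).
Bnip3: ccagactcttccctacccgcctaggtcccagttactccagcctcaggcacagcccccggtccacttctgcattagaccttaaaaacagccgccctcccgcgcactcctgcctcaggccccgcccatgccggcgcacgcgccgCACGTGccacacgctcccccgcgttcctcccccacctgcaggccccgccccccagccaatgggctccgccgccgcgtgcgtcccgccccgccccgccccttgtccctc
Ankrd37: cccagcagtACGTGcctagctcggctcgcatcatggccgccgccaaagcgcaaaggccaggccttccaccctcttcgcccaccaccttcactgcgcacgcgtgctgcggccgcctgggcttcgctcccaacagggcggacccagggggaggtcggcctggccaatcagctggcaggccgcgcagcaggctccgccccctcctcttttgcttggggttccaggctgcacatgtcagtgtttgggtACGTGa
Car9: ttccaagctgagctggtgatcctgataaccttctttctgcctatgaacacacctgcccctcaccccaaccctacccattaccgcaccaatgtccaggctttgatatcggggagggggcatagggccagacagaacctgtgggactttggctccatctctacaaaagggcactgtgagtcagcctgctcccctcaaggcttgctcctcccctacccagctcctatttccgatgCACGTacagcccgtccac
Egln3: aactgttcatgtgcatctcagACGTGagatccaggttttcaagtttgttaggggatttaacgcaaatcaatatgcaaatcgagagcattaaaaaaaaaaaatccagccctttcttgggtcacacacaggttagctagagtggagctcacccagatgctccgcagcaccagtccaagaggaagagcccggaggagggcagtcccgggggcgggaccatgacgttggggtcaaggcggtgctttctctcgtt
Adm: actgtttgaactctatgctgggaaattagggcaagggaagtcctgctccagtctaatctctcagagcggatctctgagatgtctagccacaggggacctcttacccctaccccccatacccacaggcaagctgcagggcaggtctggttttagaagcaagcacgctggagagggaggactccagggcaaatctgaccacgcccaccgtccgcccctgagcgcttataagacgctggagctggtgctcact

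In the Bnip3 promoter the palindrome starts 108 bases before the gene's start, and in Car9 the match starts 18 bases before it. Ankrd37 holds matches 241 and 6 bases before its start, and Egln3 holds 1, 229 bases before. Adm, the listed gene with the largest difference, holds no ACGTG on either strand in this window. It does hold CACGC, the reverse complement of GCGTG, but that form was not searched or marked in any promoter. Promoters were found for 18 of the 19 genes, and 11 of them (61.1%) held ACGTG on either strand, against 16.6% of 27025 promoters of the same length, counted 1 per gene. CACGTG was in 2 of the 18 and in 6.05% of all. Of the 11 genes with a match 9 were at least 2-fold higher, and of the 7 without a match 5 were. The list was drawn up from HIF targets and glycolysis genes, so its share of matches cannot speak to the culture. A match describes letters only, and binding was not measured.

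Genes of tissue injury and repair were higher as well. Of 11 measured injury genes 8 were higher and none lower, with a median difference of 3.26 (1.96 with bounds, 0.60 with normexp correction). Lcn2, a secreted lipocalin of damaged tubules, was at 2.79 in cultured and -2.10 in fresh kidney (29.6-fold), clusterin Clu at 5.96 and 1.85 (17.4-fold), and the chemokine Ccl2 at -0.55 and -3.83 (9.72-fold). Havcr1, which encodes the injury marker KIM-1, was below background on both arrays. Among 13 targets of TGF-beta and of the mechanical sensor YAP 9 were higher and none lower, with a median difference of 2.22. Ccn2, a matrix-cell signal, was at 3.79 in cultured and -0.33 in fresh kidney (17.4-fold), and the activin subunit Inhba at 0.49 and -3.22 (13.1-fold).

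Interferon response and antigen presentation genes had a median difference of 1.80 (1.55 with bounds, 0.996 with normexp correction), with 7 of 10 higher and none lower, such as Ifitm3 (4.03 and 1.59, 5.42-fold) and H2-K1 (3.24 and 1.23, 4.04-fold). Of 10 immediate early and heat shock genes 6 were higher and 1 lower, with a median difference of 1.14 (0.45 with normexp correction). Fos was at 0.21 in cultured and -4.51 in fresh kidney (26.5-fold), Egr1 at 3.17 and 0.86 (4.98-fold) and the chaperone Hspa1a at -1.13 and -4.22 (8.53-fold), while Hsph1 was 2.42-fold lower. Among proteases and their inhibitors Mmp9 was seen only on the cultured array (at least 9.98-fold), Timp3 was 8.21-fold higher (4.92 and 1.88) and Mmp11 2.03-fold lower, with 5 of 8 measured genes within 2-fold and a median of 0.48.

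Sterol synthesis genes had a median difference of 0.40, and 1 of 13 was higher and none lower. Fatty acid oxidation genes had a median of 0.55, with 4 of 13 higher and none lower. Among those were Pdk4 (3.95-fold), Cpt1a and Ppargc1a (2.22-fold each). Among 13 Wnt targets and modulators 4 were higher and none lower (median 0.60), with Wif1, a secreted Wnt inhibitor, at -0.10 and -3.18 (8.44-fold), Sp5 at 1.47 and -0.64, Lgr5 at 0.40 and -1.54 and Dkk2 at -0.15 and -1.92. Axin2 lay within 2-fold at 0.66 and -0.08.

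Fresh kidneys of later stages give these values a scale. They share the E11.5 array with the comparison, so the levels are given side by side only. Hnf4a was at 2.64 in cultured kidney, and in fresh kidney at -5.26 at E11.5, 2.26 at E13.5, 4.61 at E15.5, 5.22 at E17.5 and 5.54 at P0. Umod was at -0.996 in cultured kidney, and at -4.20, -3.51, 0.22, 3.70 and 5.70 at the same stages. Both stood between the E13.5 and E15.5 levels. The median over the proximal tubule list, relative to E11.5, was 3.17 in culture and 1.05, 4.84, 7.05 and 8.18 at the 4 later stages. For the nephron progenitor list these medians were -0.26 in culture and 0.02, -0.45, -0.69 and -1.17. For cell cycle genes they were -0.86, and 0.39, -0.13, -0.65 and -1.05.

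Other groups had levels in culture that no fresh stage showed. A rule added after the values were seen counted genes whose cultured level was at least 2-fold above, or below, all 5 fresh arrays. Of 17358 genes with values on all 6 arrays 407 were above (2.34%) and 118 below (0.68%). Of the 19 hypoxia genes 14 were above every fresh array. Bnip3, for example, was at 6.27 in cultured kidney and between 3.15 and 4.49 in fresh kidney, and Car9 at 0.76 and between -2.95 and -2.39. Contractile genes above all fresh arrays were Actg2, Cnn1, Myh11, Tagln and Myocd, 5 of 11. All fresh kidneys were taken without ureter, which is not stated for the cultured kidney. Also above all fresh arrays were Lcn2, Ccl2, Cxcl1 and Il6, 4 of 11 injury genes, and 4 of 13 TGF-beta and YAP targets, Ccn2, Ltbp2 and Inhba among them. None of the early nephron, podocyte, proximal tubule or loop genes lay at least 2-fold above all fresh arrays. Below every fresh array were 6 of 12 erythroid genes, Plvap and Tek of the endothelium, and Crabp1.

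Over all genes the farthest above the fresh range were A2m, a protease inhibitor (at least 23.6-fold above the highest fresh array), Defa-rs4, a defensin-related gene (at least 19.4-fold), Chac1, which degrades glutathione (18.9-fold), Cox8b, a cytochrome oxidase subunit of muscle and brown fat (18.8-fold), and Prph (at least 18.5-fold). Outside the Y-linked genes and those of red blood cells, Aplnr, the apelin receptor of sprouting vessels, was farthest below, 14.2-fold under the lowest fresh array.

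**Figure D3:**
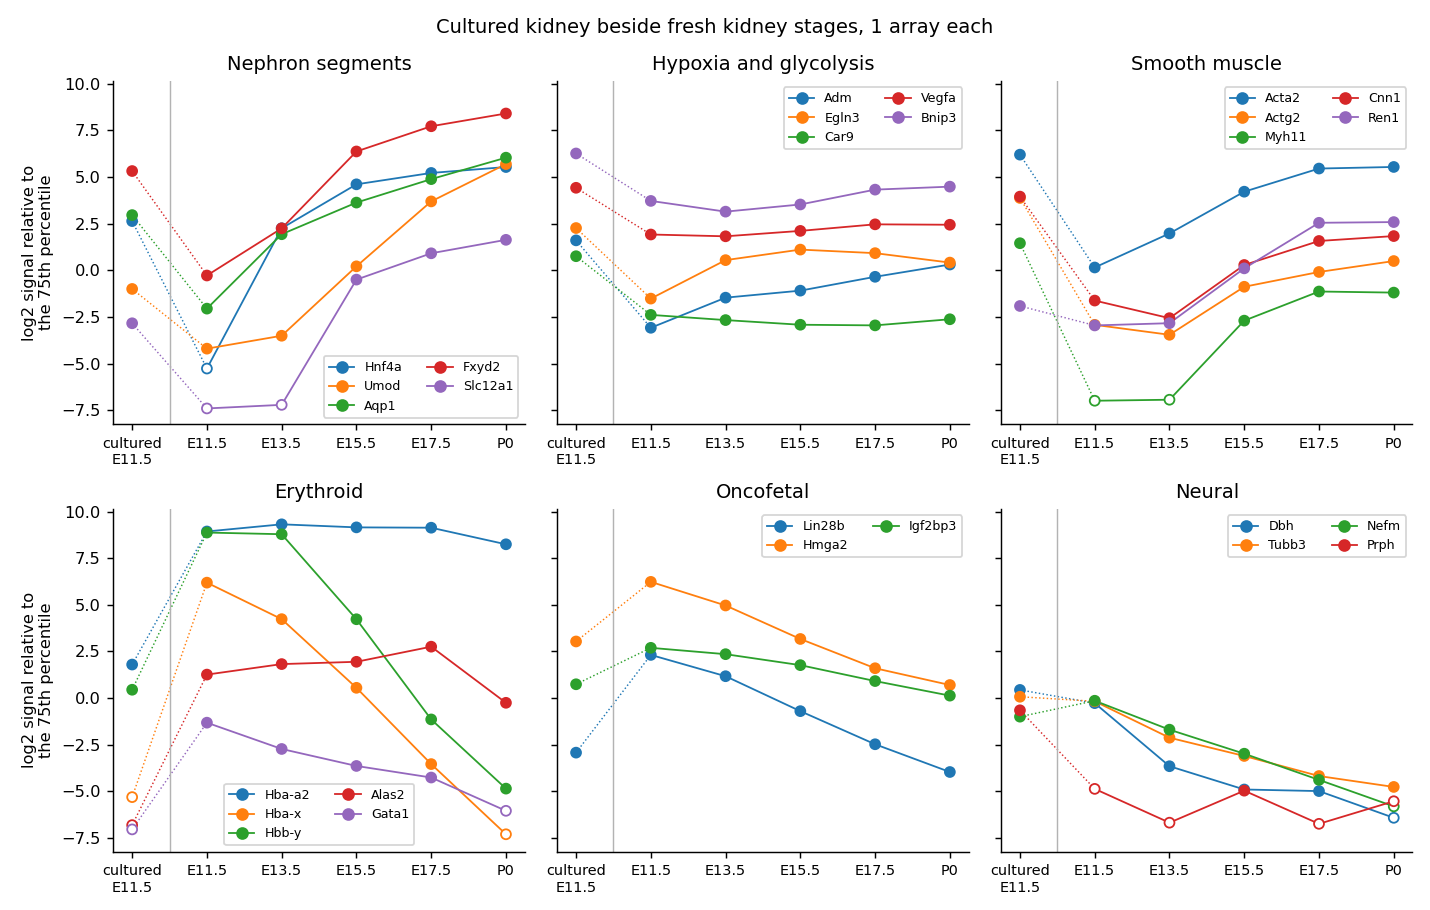
Levels of selected listed genes, as log2 signal relative to the array's 75th percentile, in cultured E11.5 kidney at the left and in fresh kidney from E11.5 to P0, 1 array each; open symbols were not well above background. Hnf4a and Umod in culture lie between E13.5 and E15.5, Adm, Egln3, Car9, Vegfa and Bnip3 lie above every fresh stage, and the globins Hba-a2 and the embryonic Hba-x are low in culture. Hba-x also falls across the fresh stages.

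Neural genes differed from both patterns. In fresh kidney their median fell below E11.5 by 1.72 at E13.5 and by 2.52 to 2.85 later, while in culture it was -0.21. With the mean of all probes the culture value was -0.72, and the stages were read at the brightest probe only. Dbh was at 0.44 in cultured kidney, and at -0.27, -3.65, -4.90, -4.99 and -6.42 in fresh kidney from E11.5 to P0. The oncofetal list had a median of -1.63 in culture, and of -0.52, -0.91, -1.56 and -2.31 at the later stages. Hmga2 was at 3.03 in culture, and at 6.23, 4.96, 3.17, 1.60 and 0.70 in fresh kidney from E11.5 to P0.

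Organoids cultured for the same time allow a test of whether kidney and organoids changed alike. The change of E11.5 kidney (cultured minus fresh) minus the change of organoids (day 7 minus day 0) was fitted with limma on 8 arrays, with the lone kidney arrays assumed to vary like organoid replicates. A positive difference of changes means more gain, or less loss, in kidney. Whether the 3 replicates of an organoid group came from separate cultures is not stated in the labels, and p-values then measure only the spread between these arrays. All kidney arrays and day 0 replicates 1 and 2 lay on 1 slide, and day 0 replicate 3 and the day 7 organoids on another. The day 0 organoid arrays were the dimmest, with 75th percentiles of signal of 127, 138 and 126, against 201 to 206 on the day 7 arrays. On the day 0 arrays 50.6%, 54.2% and 53.8% of probes were well above background, and on the day 7 arrays 57.3% to 58.2%. The part of this in the differences of changes was not tested. Of 17504 genes 1244 had a higher difference (7.11%) and 1543 a lower one (8.82%) at an adjusted p under 0.05. With slide as a block the counts were 845 and 1050, without day 7 replicate 3 they were 615 and 866, and with normexp correction 4791 and 2678, where the balance turned toward higher.

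Endothelial genes had a median difference of changes of -3.50. Members of the lists are named here after their values were seen. Tests and list medians use measured levels, and where a group was not above background the difference is given as the smallest size that the detection limit allows. Of 16 genes 11 had a lower difference of changes and 1, Kdr, a higher one, with a median kidney change of -0.09 and a median organoid change of 3.34. Flt1 was at 1.20 in cultured and 1.26 in fresh kidney, while it averaged 0.78 ± 0.58 in day 7 and -3.68 ± 0.18 in day 0 organoids (SD, n = 3 each). Its difference of changes was -4.52 ± 0.59 (SE; limma, adjusted p = 0.00855). Plvap averaged 0.11 ± 0.08 in day 7 and -1.53 ± 0.05 in day 0 organoids, and its difference was -4.27 ± 0.15 (limma, adjusted p = 0.000732). Cldn5, a tight junction claudin, had a difference of -3.31 ± 0.48 (limma, adjusted p = 0.0109) and Tek one of -2.62 or lower (limma, adjusted p = 0.00473), since day 0 organoids were below background for Tek. The levels after culture lay close together for both of the following genes. Cdh5 was at 2.14 in cultured kidney and 1.44 ± 0.86 in day 7 organoids, and Cldn5 at 2.50 and 2.52 ± 0.41. The call of Cdh5 (-4.10 ± 0.83; limma, adjusted p = 0.0263) and that of Kdr (0.84 ± 0.17; limma, adjusted p = 0.0261) were lost with slide as a block (adjusted p = 0.0674 and 0.0617). Leaving out a single array also ended the call of Cdh5 for day 0 replicate 2, day 0 replicate 3 and day 7 replicate 1, and that of Kdr for each day 7 replicate, with adjusted p-values of 0.0505 to 0.0678 by limma. With slide as a block 6 endothelial genes were still lower, and without day 7 replicate 1 also 6, against 13 without day 7 replicate 2.

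Targets of TGF-beta and YAP gained less in kidney, with 7 of 13 lower and none higher, and a median change of 2.22 in kidney and 5.64 in organoids. Ltbp2, a listed member of the latent TGF-beta binding protein family, had a difference of changes of -4.95 ± 0.69 (limma, adjusted p = 0.0102), with 1 of 3 day 0 organoid arrays above background.

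Ureteric tip genes were lower in 6 of 10 cases, with a median change of -0.23 in kidney and 1.20 in organoids. Ret was at 0.01 ± 0.21 in day 7 and -2.47 ± 0.22 in day 0 organoids, and its difference was -2.59 ± 0.32 (limma, adjusted p = 0.00727). Early nephron genes were lower in 10 of 14 cases and higher in 1, Osr2. Wnt4 averaged 4.99 ± 0.11 in day 7 and 1.21 ± 0.29 in day 0 organoids and differed by -2.10 ± 0.32 (limma, adjusted p = 0.0126), and Jag1 by -1.58 ± 0.19 (limma, adjusted p = 0.00711). Day 0 organoids stood below fresh kidney for both genes. Jag1 was at 2.75 in cultured kidney and 2.50 ± 0.09 in day 7 organoids, and at 0.87 in fresh kidney and -0.97 ± 0.12 in day 0 organoids. Cell cycle genes were lower in 12 of 20 cases, such as Mki67 (-1.46 ± 0.18; limma, adjusted p = 0.00751). Mki67 was at 4.62 in cultured and 5.18 in fresh kidney. It averaged 4.66 ± 0.09 in day 7 and 3.76 ± 0.10 in day 0 organoids.

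Neural genes were higher in 5 of 15 cases and lower in 2. Elavl3, an RNA-binding protein of neurons, was at -3.67 in cultured and -3.71 in fresh kidney, while it was not above background in day 7 organoids (-7.01 ± 0.10) and averaged -2.71 ± 0.39 in day 0 organoids. Its difference of changes was 2.35 or higher (limma, adjusted p = 0.00362). Stmn2, which regulates microtubules in growing axons, differed by 3.59 ± 0.43 (limma, adjusted p = 0.00711). In the smooth muscle list 2 genes were higher and 2 lower of 12. Acta2 was at 6.20 in cultured and 0.15 in fresh kidney. In organoids it averaged 7.78 ± 0.16 at day 7, above its level in cultured kidney, and 3.89 ± 0.18 at day 0. Acta2 gained 6.05 in kidney and 3.89 ± 0.13 in organoids, a difference of 2.16 ± 0.26 (limma, adjusted p = 0.00731), and Myh11 differed by 1.41 or more (limma, adjusted p = 0.00404), since fresh kidney was below background for it. No collecting duct gene of 19 passed the limma test at an adjusted p under 0.05, and 1 had an unadjusted p under 0.05, while in organoids alone 16 rose and 3 fell. Hypoxia genes were lower in 6 of 19 cases and higher in none, with a median change of 1.95 in kidney and 2.72 in organoids. Stromal progenitor genes were higher in 5 of 13 cases and lower in 1.

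Genes among the 5 with the largest difference each way, counted at bounds, joined several of these groups. Higher were Cox8b (4.79 or more, with fresh kidney below background; limma, adjusted p = 0.00258), the neuropeptide precursor Tac1 (4.49 ± 0.67; limma, adjusted p = 0.0121), the neuronal stathmin Stmn3 (4.44 ± 0.54; limma, adjusted p = 0.00718) and the neurofilament Nefm (4.25 ± 0.39; limma, adjusted p = 0.00385). Lower were 1600027J07Rik (-7.24 ± 0.58; limma, adjusted p = 0.00258), the red cell antigen Rhd (-5.91 or lower; limma, adjusted p = 0.0207), Glipr1 (-5.37 or lower; limma, adjusted p = 0.00387), Ddx3y (-5.10 or lower; limma, adjusted p = 0.000658) and Ltbp2. Day 0 organoids were below background for Rhd and Glipr1, and cultured kidney for Ddx3y. Ddx3y lies on the Y chromosome, and Y-linked RNA was detected in fresh but not in cultured kidney. The sex of the embryos is not stated, and its part in this value was not tested. The call of Rhd was lost without day 7 replicate 1 (adjusted p = 0.0504).

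**Figure D4:**
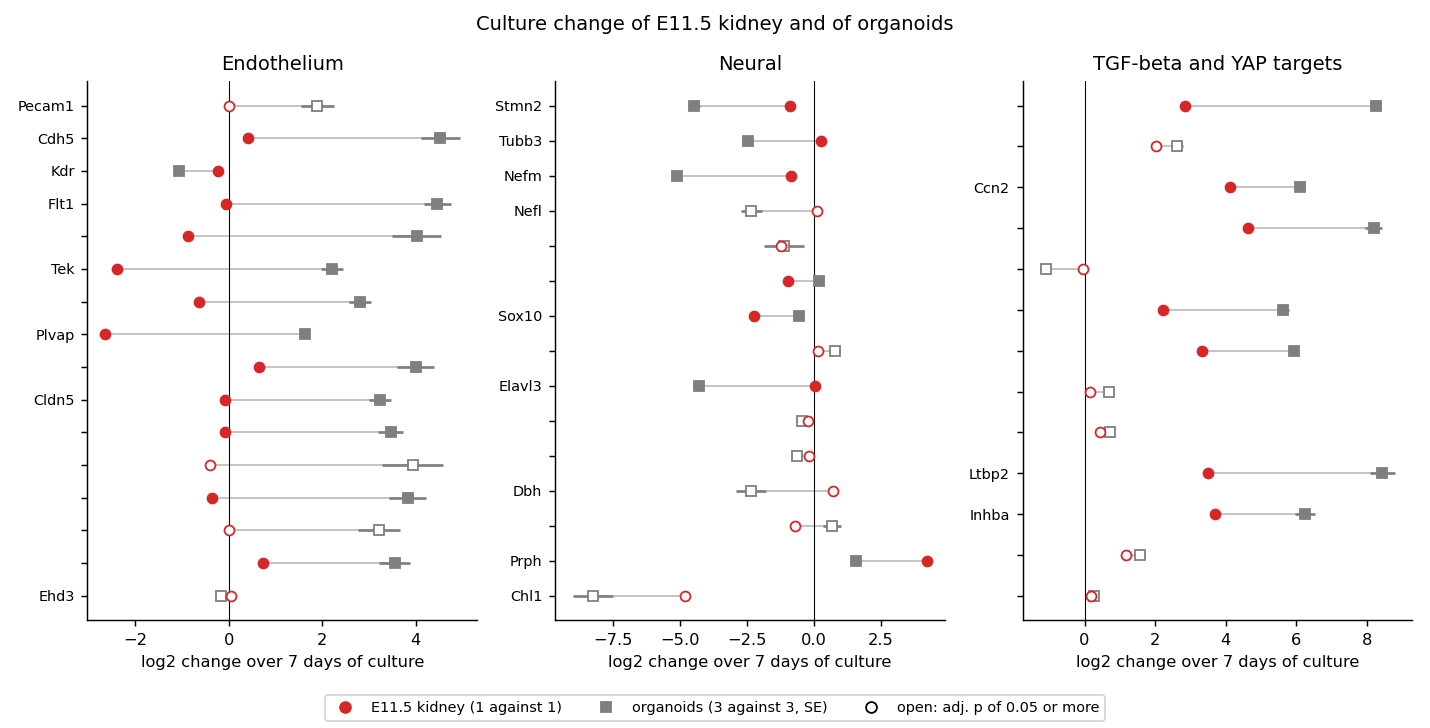
Change over 7 days of culture (log2) in E11.5 kidney (red circles, 1 array against 1) and in organoids (grey squares with the SE of the fit, 3 arrays against 3), for genes of 3 lists; filled symbols mark a difference of changes with an adjusted p under 0.05, and lines with no name are other members of the lists. All changes are drawn at measured levels, also where a group was not above background. Endothelial genes other than Kdr and Ehd3 gained in organoids and lay between -2.64 and 0.73 in kidney, and 7 of 13 TGF-beta and YAP targets gained more in organoids at that threshold.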

How the data were processed

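Gene expression was measured on 12 one-colour (Cy3) Agilent whole-genome arrays. The deposited files hold the scanner's spot intensity values, which per the file headers were extracted with Feature Extraction 11.5.1.1 on a design annotated on mm9, while the submitters' processing notes name version 10.7.3.1. The authors' deposited value table holds log2 values of the same arrays and served as an alternative.

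Here, control spots and outlier spots were removed, spots of a probe averaged, and levels taken as log2 of the processed signal minus each array's 75th percentile. Probes were named through RefSeq accessions (28026), symbols (3418) and synonyms (295), 1061 kept the file's name and 22881 had none. Each gene was read at its brightest probe. The array number limits the precision.

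The kidney pair has no replicates and no test. The contrast with organoids was fitted with limma 3.58.1 (R 4.3.3) on genes that all arrays of 1 or more of the 4 groups showed above background, with eBayes, two-sided tests and Benjamini-Hochberg adjustment. The scripts, in Python 3.11.15, were tested on simulated data. Replicate numbers did not pair organoids, with correlations of -0.04, -0.09 and -0.03.

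Named genes were the 10 each way with the largest difference above background on both arrays, the 5 each way above background on 1, the 5 each way with the largest difference of changes, and from each of 37 lists the members with the largest differences, those against the trend and those that define the cell type. Some of these genes are not reported here. Members and lists were chosen with earlier results of these data known. Alternatives were normexp correction with an offset of 50, median and quantile scaling, the authors' values, the mean of all probes, other background filters, slide and replicate blocks, and leaving out each organoid array.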

Additional observations from a re-analysis of the deposited data

Results flagged for a closer look

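The following genes changed differently over culture in E11.5 kidney and in organoids by limma's test of the difference itself, in which the 2 kidney arrays have no replicates of their own. More gain or less loss in kidney was seen for Cox8b (4.79), Tac1 (4.49), Stmn3 (4.44), Elavl3 (2.35), Nefm (4.25), Stmn2 (3.59), Myh11 (1.41), Acta2 (2.16) and Kdr (0.84), all as log2 differences of changes. Those of Cox8b, Elavl3 and Myh11, and below those of Ddx3y, Rhd, Glipr1, Krt23 and Tek, are the smallest sizes that the detection limit allows, since 1 group was not above background. Stmn3, Elavl3, Nefm and Stmn2 fell in organoids.

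Less gain or more loss in kidney was seen for 1600027J07Rik (-7.24), Ddx3y (-5.10), Rhd (-5.91), Glipr1 (-5.37) and the keratin Krt23 (-4.43). Ddx3y lies on the Y chromosome, and the part of embryo sex, which is not stated, in its value was not tested. Of the TGF-beta and YAP targets Ltbp2 (-4.95) was named, and among endothelial genes Tek (-2.62), Flt1 (-4.52), Plvap (-4.27), Cdh5 (-4.10) and Cldn5 (-3.31). Ret (-2.59), Wnt4 (-2.10), Jag1 (-1.58) and Mki67 (-1.46) completed the set. Slide and day 7 overlap in the organoids, and the slide's part in these values was tested only as a block.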

How the results depend on the processing

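No listed gene with a difference of at least 1 in size changed its sign under any alternative that was run, while sizes and counts moved. With normexp background correction 1123 genes were at least 2-fold higher and 492 lower, 11 lists in place of 18 had a median of at least 1 in size, and differences of the 30 named genes were 0.363 to 1.0005 times as large (median 0.681). The median of all genes lay between -0.20 (scaled to the median) and 0.03 (no background filter). With only genes above background on both arrays the median of the liver and yolk sac list was -0.10 and that of the sex-linked list 0.38, since that filter leaves out genes seen on 1 array. For the contrast with organoids, normexp correction gave 4791 higher and 2678 lower genes, and the replicate block 313 and 599, although the numbers do not pair these samples; the causes were not tested. Leaving out 1 organoid array gave 615 to 1243 higher and 866 to 1506 lower genes, with 627 and 895 without day 7 replicate 1, and 615 and 866 without day 7 replicate 3. Of the named genes, Cdh5 and Kdr lost their call in 5 settings each, with the replicate block at adjusted p = 0.0504 and 0.0780 by limma, Tac1 with the replicate block (0.0531), and Rhd in 1. Genes near background rest on weak signals, and 1 array a side gives no spread.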

Other observations

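A group of stress genes stood out and was listed after its values were seen, so it has no test. These are Atf4 and targets of its product ATF4, a factor that cells use when amino acids are short or proteins misfold in the endoplasmic reticulum. Of these 13 genes, Atf4 included, 7 were at least 2-fold higher in cultured kidney and none lower, with a median difference of 1.21. Over all measured genes 12.1% were higher. At least 2-fold above all 5 fresh kidney arrays lay 6 of the 13, against 2.34% of all genes. Nupr1 was 82.3-fold higher. Chac1 was at 3.07 in cultured and -1.72 in fresh kidney (27.7-fold), Trib3, a pseudokinase, at 3.80 and 0.01 (13.8-fold), and Vldlr, a lipoprotein receptor, at 5.11 and 2.32 (6.94-fold). Asns, which makes asparagine, was 2.62-fold higher (4.81 and 3.41), Ppp1r15a 2.32-fold and Ddit3 2.21-fold. Atf4 itself lay within 2-fold (6.99 and 6.23), as did the serine pathway enzymes Psat1, Phgdh and Shmt2. So did Slc7a5 (0.19 and -0.26) and, at its detection limit, Slc7a11 (-4.61 and -7.34), which was seen only on the cultured array.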
